A study of Mus musculus with 2 samples.

Results

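Granule exocytosis was described by 10 genes that encode the SNARE proteins Snap23, Vamp2, Vamp7, Vamp8, Stx3 and Stx4a and their regulators Stxbp2, Rab27a, Rab27b and Unc13d. They were selected by symbol among the 23284 genes listed in each of the 2 libraries, and all 10 were found. The RNA came from leukemic stem cells (LSCs), sorted from mice with an induced chronic myeloid leukemia (CML). To induce it, LSK cells (lineage-negative cells with Sca-1 and c-Kit on their surface) of C57BL/6J donors received p210 BCR-ABL by a retroviral vector that also carries GFP, and were transplanted into lethally irradiated C57BL/6SJL recipients. GFP+ CD45.2+ LSK cells were sorted at day 11 after the first transplantation, when donor cells were wild type in 1 library (WT) and lacked STAP-1 by a targeted disruption of its gene in the other (STAP-1 KO). Both libraries therefore carry BCR-ABL, both come from mice used at 8 to 14 weeks of age, and the sources used here do not give how many mice were pooled for each. With 1 library per genotype no difference below has a replicate check, no test was possible and no p-value is given.

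Granules are released when their membrane fuses with the plasma membrane. A vesicle SNARE of the VAMP family pairs with a syntaxin and a SNAP protein of the target membrane, and the 4-helix bundle that forms pulls the membranes together. SM proteins such as Stxbp2 (Munc18-2) hold and guide syntaxins, Unc13d (Munc13-4) prepares docked granules for fusion, and the small GTPases Rab27a and Rab27b bring granules to the cell edge. In mast cells this machinery releases histamine and proteases, and in neutrophils it releases granules such as those that hold myeloperoxidase. Loss of Rab27a, Unc13d or Stxbp2 function causes inherited disorders of cytotoxic granule release. The comparison asks whether the machinery differed between the libraries together with the contents of mast cell granules or with those of neutrophil granules.

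The deposited values are FPKM, fragments per kilobase of transcript scaled to the mapped fragments, so levels of different genes can be set side by side. Whole-read steps among low values placed the effective depth at 7500000 reads (WT) and 10470000 reads (STAP-1 KO). Intervals below are exact 95% intervals for reads estimated at these depths, and they cover counting error only. The reads were estimated with the longest annotated transcript of each gene. Where shorter transcripts were expressed, the reads are overestimated and the intervals too narrow. Ratios are log2((STAP-1 KO + 0.1)/(WT + 0.1)), and the median over the 10974 genes that averaged 1 FPKM or more was -0.04. The targeted gene Stap1 had 62.0 FPKM in WT LSCs and 0.309 in STAP-1 KO LSCs. Among mast cell markers outside the granule, the receptor genes Kit (468 FPKM in WT LSCs and 30.1 in STAP-1 KO LSCs), Fcer1a (1830 and 218 FPKM) and Il1rl1 (521 and 23.3 FPKM) were all lower in STAP-1 KO LSCs. Kit encodes c-Kit, which was also a surface marker of the sort for both libraries. Fewer cells of a type and less RNA per cell cannot be told apart in such bulk libraries.

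Of the 10 exocytosis genes, 9 were above 0 in both libraries and Vamp7 was listed at 0 in both. Of the 9, 7 were lower and 2 had higher levels without STAP-1, and their median log2 ratio was -0.93, next to a median of -0.04 and a lower quartile of -0.88 for all genes. With both libraries at 0.1 FPKM or more, 4 genes were at least 2-fold lower, namely Rab27b, Stx3, Unc13d and Vamp2, and none was at least 2-fold higher. After correction for transcript length and GC content, described further on, 3 of these 4 were past the cut-off, with Snap23 (-1.42) in place of Unc13d (-0.66). Among all 12507 genes compared in this way, 22.9% were at least 2-fold lower and 12.3% at least 2-fold higher. Snap23 was the nearest gene short of the cut-off, with a WT level 1.91-fold that of the STAP-1 KO library, and Vamp2 was the nearest past it, at 2.23-fold. The summed level of the 10 genes differed little, with 924.2 FPKM in WT LSCs and 852.2 in STAP-1 KO LSCs. Vamp8 made up 41.7% of this sum in WT LSCs and 66.9% in STAP-1 KO LSCs, while the share of Rab27b went from 7.53% to 1.41%.

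**Figure D1:**
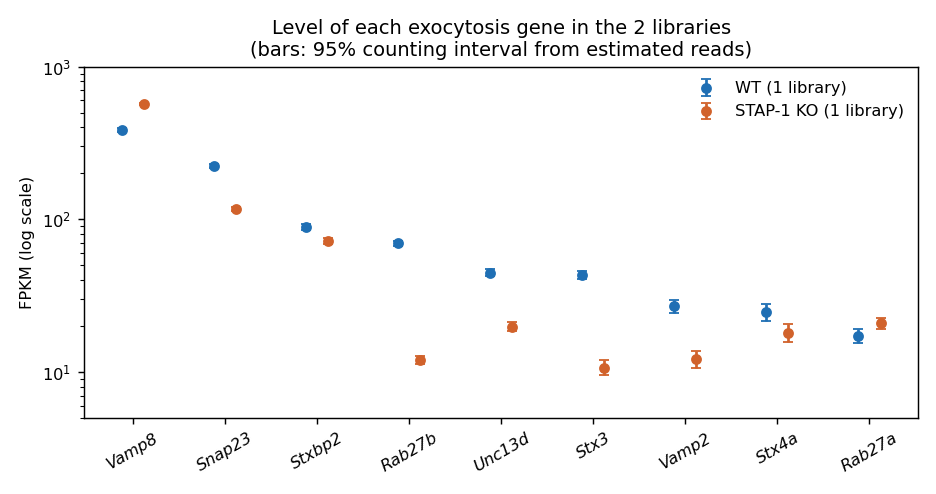
FPKM (log scale) of the 9 exocytosis genes above 0 in WT LSCs (blue) and STAP-1 KO LSCs (orange), with bars for the 95% counting interval. Vamp8 and Rab27a are higher in STAP-1 KO LSCs and the other 7 genes are lower, with the widest gaps at Rab27b and Stx3.

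**Figure D2:**
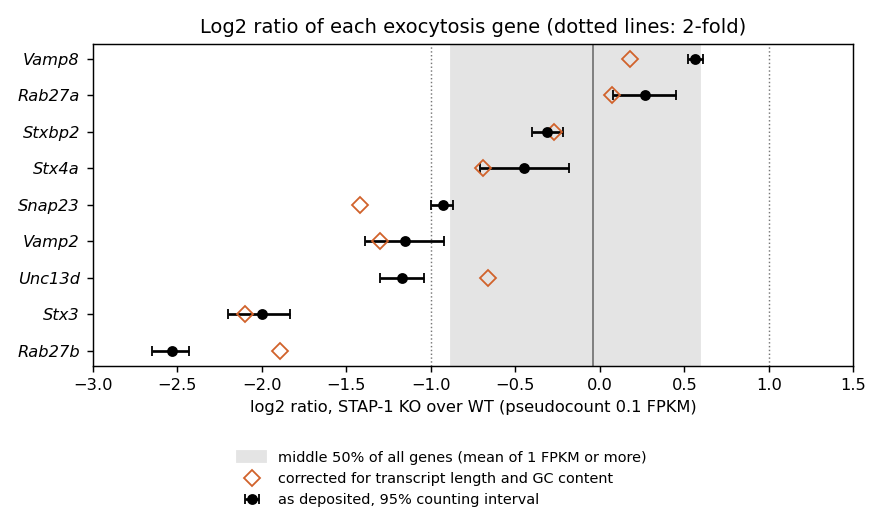
Log2 ratio of STAP-1 KO over WT for the same 9 genes, as deposited (black, with 95% counting intervals) and after correction for transcript length and GC content (orange diamonds). The grey band from -0.88 to 0.59 holds the middle 50% of all genes, and Rab27b, Stx3, Unc13d, Vamp2 and Snap23 lie below it as deposited.

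Among the vesicle SNAREs, Vamp8, which forms fusion complexes on secretory granules and late endosomes, was the most abundant of the 10 genes in both libraries. It had 385 FPKM in WT LSCs and 570 in STAP-1 KO LSCs. Its log2 ratio of 0.56 (interval from 0.52 to 0.61) was below the 2-fold cut-off, and 73.9% of all genes had a lower ratio. Vamp2, the synaptobrevin best known from synaptic vesicles, went the other way. It had 27.1 FPKM in WT LSCs and 12.2 in STAP-1 KO LSCs, with a log2 ratio of -1.15 (interval from -1.39 to -0.92). Vamp8 therefore held 72.0% of the summed level of 6 VAMP genes (Vamp1, Vamp2, Vamp3, Vamp4, Vamp5 and Vamp8) in WT LSCs and 77.3% in STAP-1 KO LSCs, and Vamp2 held 5.06% and 1.65%. Of the VAMP genes outside the 10, Vamp3, a SNARE of recycling endosomes, had 70.9 FPKM in WT LSCs and 73.1 in STAP-1 KO LSCs.

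The vesicle SNARE gene Vamp7, which acts in fusion of late endosomes and lysosomes, was listed at 0 FPKM in both libraries. GENCODE M21 places it outside the assembled chromosomes, on the unplaced scaffold GL456233.1 from 10738 to 39148. The other named genes of this scaffold that the files list, Spry3 and Tmlhe, were also at 0 FPKM in both libraries. In all, the files list 8 genes that are annotated only on unplaced scaffolds, and 8 of these 8 were at 0 in both libraries. Whether the reference used for mapping held these scaffolds is not given in the sources used here, so no level can be given for Vamp7.

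Of the target-membrane SNAREs, Snap23, the partner that syntaxins use outside neurons, was second in level in both libraries. It had 223 FPKM in WT LSCs and 117 in STAP-1 KO LSCs, a log2 ratio of -0.93 (interval from -1.0 to -0.87). Stx3, a syntaxin found on granules and at the plasma membrane, had 43.2 FPKM in WT LSCs and 10.7 in STAP-1 KO LSCs. Its log2 ratio of -2.00 (interval from -2.20 to -1.83) was among the lower ones, since 8.43% of all genes had a lower ratio, and Stx3 was the last of the 9 genes by level in STAP-1 KO LSCs. Stx4a, the main syntaxin of the plasma membrane in many secretory cells, had 24.6 FPKM in WT LSCs and 18 in STAP-1 KO LSCs. Its log2 ratio of -0.45 (interval from -0.71 to -0.18) lay within the middle 50% of all genes.

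The regulators that act on syntaxins and docked granules did not move by the same amount. Stxbp2, the SM protein that binds Stx3 and Stx11, had 89.4 FPKM in WT LSCs and 72.1 in STAP-1 KO LSCs. Its log2 ratio of -0.31 (interval from -0.40 to -0.22) was the smallest difference from WT among the 7 genes that were lower. Unc13d, the priming factor that binds Rab27, had 44.7 FPKM in WT LSCs and 19.8 in STAP-1 KO LSCs, a log2 ratio of -1.17 (interval from -1.30 to -1.04) that was -0.66 after correction for length and GC. Stx11, a syntaxin of cytotoxic granules and not 1 of the 10 genes, had 24.1 and 9.86 FPKM and was past the 2-fold cut-off downwards. The Unc13d level was 0.500 of that of Stxbp2 in WT LSCs and 0.275 in STAP-1 KO LSCs.

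Promoters of 6 of the 10 genes were found in the RefSeq table of GRCm38.p6, which holds 250 bases before to 50 bases after each start. Vamp2, Vamp7, Rab27b and Unc13d are not among the 6, so of the genes at least 2-fold lower only Stx3 was covered. The promoters of Stx3, the lower in ratio of the 2 syntaxins among the 10 genes, of Vamp8, the highest in ratio of the 10, and of Stxbp2, whose log2 ratio was -0.31, are shown. They were searched on both strands for GATA, for CACGTG and CATGTG, to which MITF and related factors bind, for the STAT5 motif TTCNNNGAA and for the RUNX motif TGTGGT. Matches are in capitals, and where the match lies on the opposite strand the capitals show its reverse complement (TATC for GATA).
Stx3 (chr19:11819354-11819653, minus strand): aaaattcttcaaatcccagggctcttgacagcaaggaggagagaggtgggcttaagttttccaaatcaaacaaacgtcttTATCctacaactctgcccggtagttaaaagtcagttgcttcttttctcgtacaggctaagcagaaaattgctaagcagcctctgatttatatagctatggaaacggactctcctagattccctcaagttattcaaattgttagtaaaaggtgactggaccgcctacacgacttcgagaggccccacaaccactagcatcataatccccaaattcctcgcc
Vamp8 (chr6:72390618-72390917, minus strand): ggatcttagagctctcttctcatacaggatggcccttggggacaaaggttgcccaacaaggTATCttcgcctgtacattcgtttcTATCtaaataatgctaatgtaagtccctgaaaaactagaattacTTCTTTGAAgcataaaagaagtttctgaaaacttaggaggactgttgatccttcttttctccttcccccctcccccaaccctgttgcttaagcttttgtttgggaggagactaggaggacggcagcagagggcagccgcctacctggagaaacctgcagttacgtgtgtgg
Stxbp2 (chr8:3630859-3631158, plus strand): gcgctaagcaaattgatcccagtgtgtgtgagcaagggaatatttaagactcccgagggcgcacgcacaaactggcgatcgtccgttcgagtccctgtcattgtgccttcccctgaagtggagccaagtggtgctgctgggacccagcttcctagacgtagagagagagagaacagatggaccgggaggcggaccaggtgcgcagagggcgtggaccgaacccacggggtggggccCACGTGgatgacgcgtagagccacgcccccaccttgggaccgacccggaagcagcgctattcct

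The Stx3 promoter held 1 GATA match, which 57.9% of the 32851 promoters of this length also had at least once. The Vamp8 promoter held 2 GATA matches and 1 match to the STAT5 motif, TTCTTTGAA, that begins 121 bases before the start. This motif was present in 8.30% of all promoters. The Stxbp2 promoter held 1 CACGTG match that begins 14 bases before the start, a motif found in 7.15% of promoters, and the second promoter listed for Rab27a also held 1. The promoter of Snap23 had 1 GATA match, the first promoter of Rab27a 1 RUNX match, and that of Stx4a none of the 5 motifs. A match is a run of letters and not a bound site.

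The Rab27 paralogs differed from each other. Rab27b, the form that is abundant in mast cells and platelets, had 69.6 FPKM in WT LSCs and 12 in STAP-1 KO LSCs. Its level was 5.80-fold lower in STAP-1 KO LSCs, with a log2 ratio of -2.53 (interval from -2.65 to -2.43) that was -1.89 after correction for length and GC, and 4.91% of all genes had a lower ratio. Rab27a, the form needed for release of cytotoxic granules and melanosome transport, had 17.3 FPKM in WT LSCs and 20.8 in STAP-1 KO LSCs. Its log2 ratio was 0.27 (interval from 0.08 to 0.45), and 149 of its exonic bases also belong to the pseudogene Gm27186, which is not analysed here. Rab27a was thus the lowest of the 9 genes in WT LSCs and came right after Stxbp2 in STAP-1 KO LSCs, where it could not be separated from Unc13d by its counting interval. Platelet markers as a list went in both directions. Of 11 megakaryocyte and platelet genes at 0.1 FPKM or more in both libraries, 3 were at least 2-fold lower and 3 at least 2-fold higher, and the platelet chemokine gene Pf4 had 57.9 FPKM in WT LSCs and 71.2 in STAP-1 KO LSCs. After correction for length and GC, Vwf (-1.15 to 0.15) and Tubb1 (1.06 to 0.84) were not past 2-fold, and Pf4 went from 0.30 to -0.20.

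Ratios between genes of the same library do not depend on the scaling between libraries. The pairs were chosen with the values known. Rab27b was 4.03 times as high as Rab27a in WT LSCs (interval from 3.62 to 4.48) and 0.576 times as high in STAP-1 KO LSCs (interval from 0.519 to 0.639), so the order of the paralogs was opposite in the values as deposited. Stx3 stood at 1.76 times Stx4a in WT LSCs (interval from 1.52 to 2.04) and at 0.595 times in STAP-1 KO LSCs (interval from 0.500 to 0.705), again in opposite order. Vamp2 was at 0.0703 of Vamp8 in WT LSCs and at 0.0213 in STAP-1 KO LSCs, and Snap23 at 0.579 and 0.205. On the log2 scale the balance of Rab27b to Rab27a shifted by -2.81 and that of Stx3 to Stx4a by -1.56. After correction for length and GC these shifts were -1.98 and -1.41. The correction adjusts the ratio of the libraries and not the levels within each. If all of it is placed on the STAP-1 KO library, the Rab27 paralogs would be at about equal levels there. Whether their opposite order holds after the correction therefore cannot be told.

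**Figure D3:**
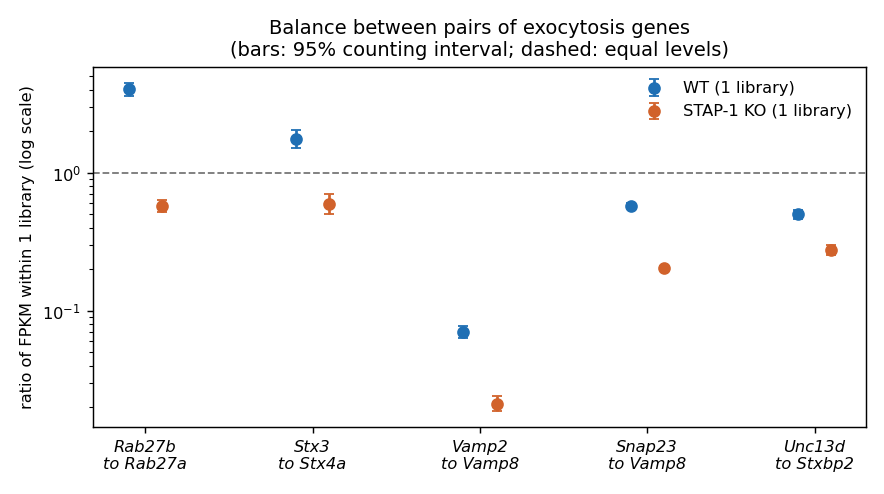
Ratio of FPKM within 1 library (log scale) for 5 pairs of exocytosis genes, with bars for the 95% counting interval. Rab27b to Rab27a and Stx3 to Stx4a lie above 1 in WT LSCs (blue) and below 1 in STAP-1 KO LSCs (orange).

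The levels gave different orders in the libraries. In the WT library the order was Vamp8, Snap23, Stxbp2, Rab27b, Unc13d, Stx3, Vamp2, Stx4a and Rab27a, where Unc13d and Stx3, and Vamp2 and Stx4a, had overlapping counting intervals. In the STAP-1 KO library it was Vamp8, Snap23, Stxbp2, Rab27a, Unc13d, Stx4a, Vamp2, Rab27b and Stx3. There, the intervals of Rab27a, Unc13d and Stx4a overlapped with their neighbours, as did those of Vamp2, Rab27b and Stx3. The first 3 places, held by Vamp8, Snap23 and Stxbp2, were the same in both.

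Apart from Vamp2 and Unc13d, no pair of these genes shares a chromosome. In GENCODE M21 (GRCm38, the build that mm10 names), Snap23 spans chromosome 2 from 120567671 to 120601255 and Vamp8 chromosome 6 from 72385223 to 72390703. Stx4a lies on chromosome 7 from 127824294 to 127849019, Stxbp2 on chromosome 8 from 3630955 to 3643644 and Rab27a on chromosome 9 from 73044854 to 73097629. Vamp2 lies on chromosome 11 from 69088490 to 69092384, and Unc13d on the same chromosome from 116062095 to 116077961. Stx3 lies on chromosome 19 from 11775118 to 11819403. All are annotated as protein coding.

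Rab27b lies on chromosome 18 from 69979131 to 70141605 and has the longest transcript of the 9 genes, with 6891 bases. The ratio of the libraries also varied with transcript length over all genes. Across 10864 genes Spearman's rank correlation of the log2 ratio with the longest transcript was -0.37, which describes genes of 1 pair of libraries. Corrected for transcript length and GC content, the log2 ratio of Rab27b was -1.89, that of Stx3 -2.10 and that of Vamp2 -1.30. The correction moved Unc13d to -0.66, short of 2-fold, and Snap23 to -1.42, past 2-fold. Vamp8 went to 0.18 and Rab27a to 0.07, close to the median of all genes.

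**Figure D4:**
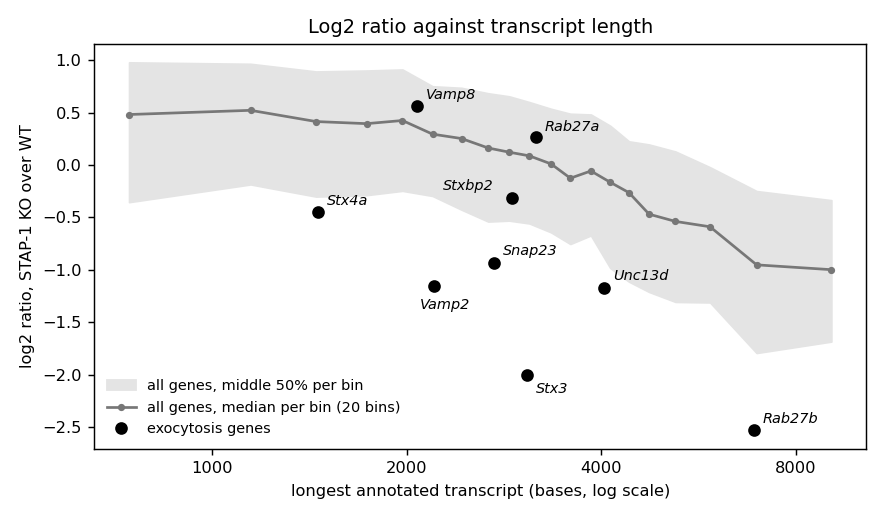
Log2 ratio of STAP-1 KO over WT against the longest annotated transcript (bases, log scale) for the 9 exocytosis genes (black), with the median (grey line) and the middle 50% (grey area) of all genes in 20 bins of length. Stx3, Rab27b, Vamp2, Snap23, Stx4a and Unc13d lie below the grey area, and Vamp8 and Rab27a lie above the line.

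The granule contents differed far more than the machinery. The 10 mast cell granule genes that averaged 1 FPKM or more had a median log2 ratio of -3.46, from -5.60 to -0.41, and 9 of the 10 at 0.1 FPKM or more were at least 2-fold lower. Cpa3, the mast cell carboxypeptidase, had 18000 FPKM in WT LSCs and 1770 in STAP-1 KO LSCs, the chymase Cma1 had 13900 and 1170 FPKM, and the tryptase Tpsb2 had 7020 and 185 FPKM. Tryptase and chymase genes have close paralogs, and reads may have been split between them. Of 8 neutrophil primary granule genes, the 6 that averaged 1 FPKM or more had a median of 2.93, from 1.38 to 3.19, and all 6 were at least 2-fold higher. After correction for length and GC, Lyz2 (1.38 to 0.92) was short of 2-fold. Mpo, the myeloperoxidase gene, had 248 FPKM in WT LSCs and 1970 in STAP-1 KO LSCs, and the serine protease genes Ctsg and Elane had 104 and 841 FPKM, and 112 and 823 FPKM. Of the other 2 genes of this list, Bpi was listed at 0 in both libraries, and Lyz1 had 0.757 FPKM in WT LSCs and was listed at 0 in STAP-1 KO LSCs. All 9 exocytosis genes lay between these medians, but so did both quartiles of all genes (-0.88 and 0.59). Only 4.91% of all genes had a ratio below that of Rab27b (-2.53), the lowest of the 9. A place between the medians therefore does not set the exocytosis genes apart from other genes. On the log2 scale, the exocytosis median was 2.52 above that of the mast cell contents and 3.87 below that of the primary granule contents. None of the 9 reached the lowest primary granule ratio, which lay above the upper quartile of all genes. Within the range of the mast cell contents lay 6, but 35.9% of all genes had a ratio below that of Stx4a (-0.45), the highest of these. Of the 6, 2 (Rab27b and Stx3) remained in the range without Mcpt1, the highest mast cell gene at -0.41. Below the ratio of Stx3 were 8.43% of all genes. After correction for length and GC, 4 genes lay in the range, and 13.1% of all genes had a ratio below that of Vamp2, the highest of them. Secondary and tertiary granule genes of neutrophils went the other way than the primary granule genes, with a median of -1.87 over 9 genes, and 7 of 10 at least 2-fold lower and 2 higher.

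The amount of content per machinery differed accordingly. Mast cell granule genes summed to 47400 FPKM in WT LSCs and 4351 in STAP-1 KO LSCs, which was 51.3 and 5.11 times the sum of the 10 exocytosis genes. Primary granule genes summed to 565.3 FPKM in WT LSCs and 4298 in STAP-1 KO LSCs, 0.612 and 5.04 times that sum. Mast cell markers outside the granule summed to 3402 and 345.8 FPKM, and the 6 of 9 with at least 0.1 FPKM in both libraries were all at least 2-fold lower. Of the other 3, Mrgprb1 and Enpp3 were at 0 in WT LSCs and Mrgprb2 at 0 in STAP-1 KO LSCs. The markers of cytotoxic lymphocytes, which use Rab27a, Unc13d and Stxbp2, were mostly low, with Prf1 (perforin) at 1.30 and 0.621 FPKM, although Nkg7 had 464 and 795 FPKM. The part of these cell types in the levels of the exocytosis genes was not tested.

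**Figure D5:**
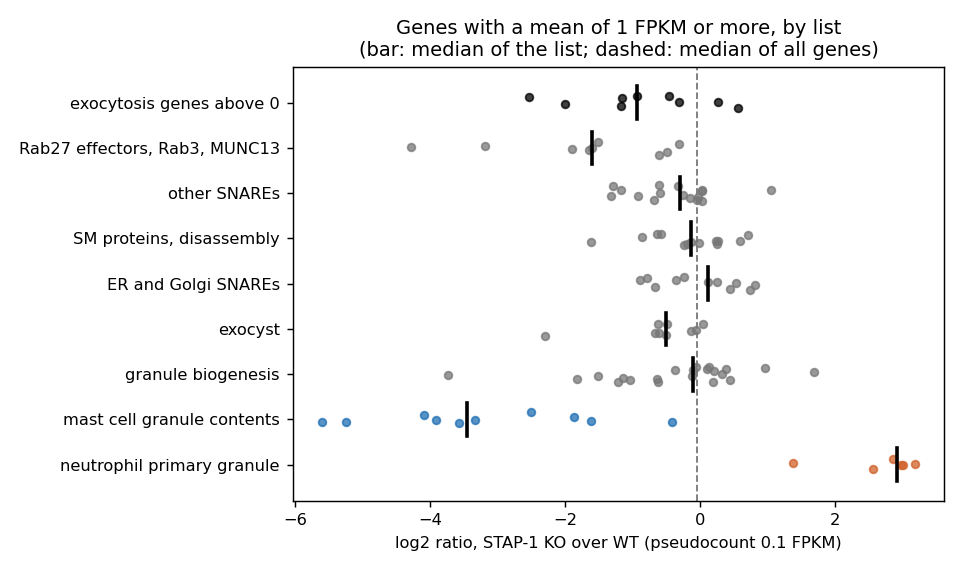
Log2 ratio of STAP-1 KO over WT for each gene that averaged 1 FPKM or more in 9 lists (points), with the median of each list (bar) and of all genes (dashed line). The exocytosis genes spread between -2.53 and 0.56. This range lies between the medians of the mast cell granule contents (blue, -3.46) and the neutrophil primary granule contents (orange, 2.93). Both quartiles of all genes (-0.88 and 0.59) lie between these medians too.

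Within the rest of the secretory pathway, 23 genes encode Rab27 effectors and regulators, Rab3 proteins, MUNC13 proteins and their relatives. Of the 11 at 0.1 FPKM or more in both libraries, 6 were at least 2-fold lower and 1 higher, the latter being Sytl4 (0.266 and 1.17 FPKM). Sytl3, a synaptotagmin-like protein that binds Rab27, had 49.9 FPKM in WT LSCs and 5.38 in STAP-1 KO LSCs. Madd, an exchange factor for Rab3 and Rab27, had 14.9 and 3.94 FPKM, a log2 ratio of -1.89, or -1.14 after correction for length and GC. The correction also took Cadps2 (-1.04 to -0.58) short of 2-fold, and Baiap3 (0.70 to 1.56, from about 8 and 21 estimated reads) past it upwards. Unc13b (Munc13-2), a relative of Unc13d, had 3.37 and 0.0784 FPKM, the latter from about 12 estimated reads.

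The general secretory machinery differed less. The 11 ER and Golgi SNARE genes had a median log2 ratio of 0.12, and none was past the 2-fold cut-off in either direction. The largest differences were those of Bet1l (30.8 FPKM in WT LSCs and 16.6 in STAP-1 KO LSCs), Bnip1 (17.0 and 30.1 FPKM) and Ykt6 (49.0 and 28.3 FPKM). Among 16 other plasma membrane and endosomal SNARE genes the median was -0.29, with 3 at least 2-fold lower (Snap29, Stx11 and Vamp4) and 1 higher (Vamp5, which had 36.2 FPKM in WT LSCs and 74.9 in STAP-1 KO LSCs). The SM proteins and the NSF disassembly factors (13 genes) had a median of -0.13, and 1 of 14, Stxbp5 (tomosyn, a brake on SNARE assembly), was at least 2-fold lower with 22.7 and 7.34 FPKM. The ATPase gene Nsf itself had 57.7 and 31.9 FPKM, and Vps33a, the SM protein of late endosomes and lysosomes, had 24.1 and 15.5 FPKM. The 9 exocyst genes, which tether secretory vesicles, had a median of -0.50, and 1 of them, Exoc6b, was at least 2-fold lower (6.14 and 1.17 FPKM). Exoc2 (35.5 and 23.0 FPKM) and Exoc4 (21.3 and 13.4 FPKM) were within 2-fold. With the correction, the exocyst median was -0.09, and Stxbp5 (-1.62 to -0.90) and Vamp5 (1.05 to 0.93) were short of 2-fold. Stxbp4, of the same list as Stxbp5, went from 0.72 to 1.23 and was then past 2-fold upwards.

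Genes for the making of lysosome-related granules gave a median log2 ratio of -0.10 over 21 genes, and of -0.31 after correction. Of 22 genes at 0.1 FPKM or more, 7 were at least 2-fold lower and 1 higher (Ap3s1). The correction took Lyst (-1.66 to -0.74), Bloc1s3 (-1.03 to -0.94) and Ap3s1 (1.70 to 0.96) below 2-fold. Nbeal2, which is needed for platelet alpha granules, had 13.7 FPKM in WT LSCs and 0.934 in STAP-1 KO LSCs, a log2 ratio of -3.74, or -2.35 after correction. Of the AP-3 adaptor genes, Ap3d1 had 40.0 and 11.2 FPKM and Ap3s1 had 25.5 and 82.9 FPKM, and the other 3 were within 2-fold. Genes of the synaptotagmin, DOC2 and complexin families were mostly low. Of these 24 genes, 11 were listed at 0 in both libraries and the 3 that averaged 1 FPKM or more had a median log2 ratio of 0.62. The same number, 3, reached 0.1 FPKM in both libraries, and none of these was past 2-fold in either direction. Doc2a, the most abundant gene of this list, had 7.92 FPKM in WT LSCs and 12.2 in STAP-1 KO LSCs. Cplx2, the complexin known from mast cells, had 1.81 FPKM in WT LSCs and 0.0202 in STAP-1 KO LSCs, the latter from about 1 estimated read. Syt5 had 1.64 FPKM in WT LSCs and was listed at 0 in STAP-1 KO LSCs, and Syt12 had 0.950 and 0.0934 FPKM.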

How the data were processed

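Gene expression of GFP+ CD45.2+ LSK cells was measured in 1 WT and 1 STAP-1 KO library. The authors amplified cDNA with a SMART-Seq v4 kit, aligned single reads of 75 bases (mm10, TopHat 2.0.13 and Bowtie2 2.2.3), and deposited FPKM values from Cuffnorm 2.2.1. The annotation and the library scaling are not given in the sources used here, and the kits do not mark strand.

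Ratios were calculated in Python 3.11.15 (numpy 2.4.6; pandas 2.3.3; scipy 1.17.1). A gene counted as lower or higher when both libraries reached 0.1 FPKM and differed 2-fold or more, without a pseudocount. Log2 ratios used a pseudocount of 0.1 FPKM, and list medians took genes averaging 1 FPKM or more. Symbols were matched to GENCODE M21 for 22809 of 23284 genes. Effective depths were those at which the largest share of low values (below 0.3 FPKM, genes with 1 transcript) lay within 0.01 of a whole read, with 208 bases taken off each transcript. This held for 48.3% of 319 WT values and 49.2% of 396 STAP-1 KO values, against 2% by chance. The steps were tested on simulated data.

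The genes and the 16 lists were chosen with earlier results of these data known. All 10 genes are named, with the 3 highest genes of each content or marker list and the 3 with the largest log2 ratio (pseudocount of 1 FPKM) of each other list. Vamp3, Vamp5, Mcpt1, Cadps2, Lyst, Bloc1s3, Sytl4, Doc2a, Bpi, Lyz1, Prf1, Mrgprb1, Mrgprb2, Enpp3, Spry3 and Tmlhe were added after their values were seen. So were Stxbp4, Baiap3, Lyz2, Vwf and Tubb1. Alternatives changed the floor, the cut-off, the pseudocount and the scaling, and subtracted the median ratio of all genes in 20 bins of transcript length and then of GC content.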

Additional observations from a re-analysis of the deposited data

How the results depend on the processing

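Under the alternatives, 4 exocytosis genes were at least 2-fold lower with no floor above 0, with a floor of 1 FPKM, under each of 3 other scalings and after correction for length and GC, 5 at a cut-off of 1.5-fold and 2 (Stx3 and Rab27b) at a cut-off of 4-fold. After the correction, 3 of the 4 were shared with the genes as reported, with Snap23 in place of Unc13d. None was higher under any of these. The median of the exocytosis genes was -0.69 after that correction and -0.86 when totals were made equal without granule contents and features under 200 bases. The median of the mast cell contents was -3.34 with all genes above 0, -3.42 when the median of all genes was set to 0 or upper quartiles were made equal, -3.39 with equal totals and -3.96 after the correction, and that of the primary granule contents was 2.64 after the correction. Over 6 alternatives none of the 9 genes changed sign, and Vamp8 ranged from 0.18 to 0.64, Rab27a from 0.07 to 0.34 and Rab27b from -2.54 to -1.89. No library could be left out, since each genotype has 1. At these depths, 3 reads on a 2000-base transcript equal 0.223 (WT) and 0.160 FPKM (STAP-1 KO). Genotype cannot be told apart from the mice, the sort or the library preparation.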

Other observations

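Granule contents of other cell types did not all follow the mast cell or the primary granule genes. Among the neutrophil secondary and tertiary granule genes, Ngp, a precursor-cell granule protein, had 52.3 FPKM in WT LSCs and 9.72 in STAP-1 KO LSCs, whereas Hp (12.9 and 46.8 FPKM) and Pglyrp1 (13 and 45.5 FPKM) were higher. Of 4 eosinophil granule genes at 0.1 FPKM or more in both libraries, 3 were higher, with Prg2 (major basic protein) at 2.12 and 61.7 FPKM and Epx (eosinophil peroxidase) at 1.02 and 8.62 FPKM, and Ear2 was lower at 6.91 and 2.78 FPKM. The basophil markers Mcpt8 (2800 and 993 FPKM), Prss34 (71.1 and 56.7 FPKM) and Cd200r3 (549 and 30.3 FPKM) were all lower, Prss34 by less than 2-fold. Among the platelet markers, Itga2b (123 and 32.5 FPKM) and Gp1ba (19.6 and 4.43 FPKM) were lower. Of the cytotoxic lymphocyte markers, Gzma had 21.1 and 8.70 FPKM and Cd3g had 1.80 and 5.04 FPKM.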
